A study of Mus musculus with 70 samples.

Results

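Panc02.3 and KPC.2 are the pancreatic cancer lines in a study of mouse cancer cell lines, and their transcriptomes were compared here before any cytokine was added. All libraries labelled as unstimulated Panc02.3 or KPC.2 were taken, which gave 3 libraries of each line and 6 of the 70 libraries in the series. The series measured RNA in 8 cancer lines left unstimulated, or stimulated for 48 h with interferon beta (IFNb, 1000 units/mL) or interferon gamma (IFNg, 100 ng/mL). Both lines carry the C57BL/6 genotype label, and all lines were grown in the same serum-supplemented DMEM with antibiotics. The labels do not explain the suffixes of the line names, list no driver alleles, and do not say whether a line is a single clone. Nothing in them says that the 3 libraries of a group are separate cultures, so a p-value here measures spread between libraries that may be technical replicates. The cytokine-treated libraries of the same lines, 3 per group, and the unstimulated libraries of the other 6 lines were companions to this comparison. All 70 libraries also entered the same fit. Other lines and treatments therefore shared in the gene filter and in the estimate of spread behind each p-value.

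Epithelial cells are held together by E-cadherin junctions, claudins and desmosomes, and carry keratin filaments. In the epithelial to mesenchymal transition these genes fall while transcription factors of the Snail, Zeb and Twist families and fibroblast-like matrix genes rise, and pancreatic tumours and their derived lines are known to span this range. Many cells also transcribe interferon-stimulated genes at a low, tonic level without added interferon, through transcription factor complexes that bind the interferon-stimulated response element.

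The library totals ranged from 6261596 to 12665956 estimated counts in Panc02.3 and from 4125643 to 7126138 in KPC.2. Values below are CPM, a gene's count divided by the scaled library total and multiplied by 1e+06, and differences are log2 of Panc02.3 over KPC.2 with their standard error (SE). A gene was called when its adjusted p was under 0.05 and its difference at least 2-fold. Of 16147 genes tested, 5372 (33.3%) were called, 2260 (14%) higher in Panc02.3 and 3112 (19.3%) higher in KPC.2. Those shares of all genes tested are the background for every list count without cytokine below. The median difference over all genes tested was -0.01, and -0.06 when a group near 0 was set to a floor of 3 counts over its libraries, the scale used for every list median below. The libraries of the lines did not overlap for 67.5% of genes tested. Transcripts encoded in mitochondria took 1.56% to 2.33% of counts in Panc02.3 and 3.15% to 3.79% in KPC.2. Whether that share bears on other differences was not tested. A called gene can differ because fewer cells express it or because each cell holds less of its RNA, and bulk libraries cannot tell these apart.

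Epithelial junction genes were mostly higher in KPC.2. Of 22 tested members of the junction and adhesion list, 18 were higher in KPC.2, 1 was higher in Panc02.3 and 3 were not called, with a median difference of -5.84. Against the mean of the other 6 unstimulated lines, 21 were higher and 0 lower in KPC.2 (22.6% and 9.48% of all genes tested). In Panc02.3, 10 were higher and 2 lower than that mean (18.1% and 9.59% of all genes tested). These contrasts share the pancreatic libraries with the comparison of the lines. E-cadherin (Cdh1), the core adhesion molecule of epithelial junctions, measured 3.33, 2.98 and 2.57 CPM in the Panc02.3 libraries and 945, 879 and 886 CPM in the KPC.2 libraries. Every KPC.2 library lay far above every Panc02.3 library, and the difference was -8.27 ± 0.10 (SE; adjusted p = 1.74e-52). Desmoplakin (Dsp), which anchors keratin filaments at desmosomes, had no count in any Panc02.3 library and 268, 256 and 270 CPM in KPC.2, at least 2331-fold higher there. The claudins Cldn3, Cldn4 and Cldn7, which seal tight junctions, and the desmosomal cadherin Dsg2 followed the same direction. Cldn3, Cldn4 and Dsg2 had no count in Panc02.3 against means of 43.2 ± 3.0, 17.1 ± 2.4 and 85.8 ± 0.75 CPM (SD, n = 3) in KPC.2. Cldn7 measured 0.177 ± 0.13 CPM in Panc02.3 and 29.9 ± 1.6 CPM in KPC.2 (SD, n = 3). Epcam, a surface marker of epithelia, was low in both lines, at 0 in Panc02.3 and at 5.01, 3.83 and 3.52 CPM in KPC.2. That is at least 37.3-fold, and DESeq2 did not call it (adjusted p = 0.352).

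The junction genes did not all follow that direction. Plakophilin 3 (Pkp3), a desmosomal plaque protein, was the exception, at 13.1 ± 2.9 CPM in Panc02.3 and 3.19 ± 0.32 CPM in KPC.2 (SD, n = 3). F11r, which encodes a junctional adhesion molecule, was close between the lines, with 169, 160 and 178 CPM in Panc02.3 and 236, 227 and 239 CPM in KPC.2. Integrin beta 4 (Itgb4), the hemidesmosome integrin, measured 216 ± 15 CPM and 115 ± 2.0 CPM (SD, n = 3) in Panc02.3 and KPC.2. Neither F11r nor Itgb4 reached 2-fold, although the libraries did not overlap for either gene.

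Keratins split by type. The simple-epithelial keratins Krt8, Krt18 and Krt19 were abundant in both lines and higher in KPC.2. Krt8 measured 898, 981 and 955 CPM in Panc02.3 and 2090, 2106 and 1939 CPM in KPC.2, a difference of -1.11 ± 0.08 (SE). Krt18 measured 570 ± 28 and 1326 ± 53 CPM, and Krt19 measured 612 ± 68 and 1718 ± 119 CPM (SD, n = 3). Krt80 was not called, with 935 counts over the Panc02.3 libraries and 523 over the KPC.2 libraries (log2 difference 0.32). Several other keratins were at or near 0 in Panc02.3. Krt7, a duct keratin, measured 0.594, 0.661 and 0.747 CPM in Panc02.3 and 964, 839 and 881 CPM in KPC.2, a difference of -10.34 ± 0.16 (SE). Krt20 had no count in Panc02.3 and 200, 177 and 186 CPM in KPC.2, at least 1662-fold. Krt15, a basal keratin, went the other way at low levels, 1.92 ± 0.39 CPM in Panc02.3 and 0.311 ± 0.22 CPM in KPC.2 (SD, n = 3). In all, 6 of 10 tested keratins were higher in KPC.2 and 1 in Panc02.3.

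**Figure D1:**
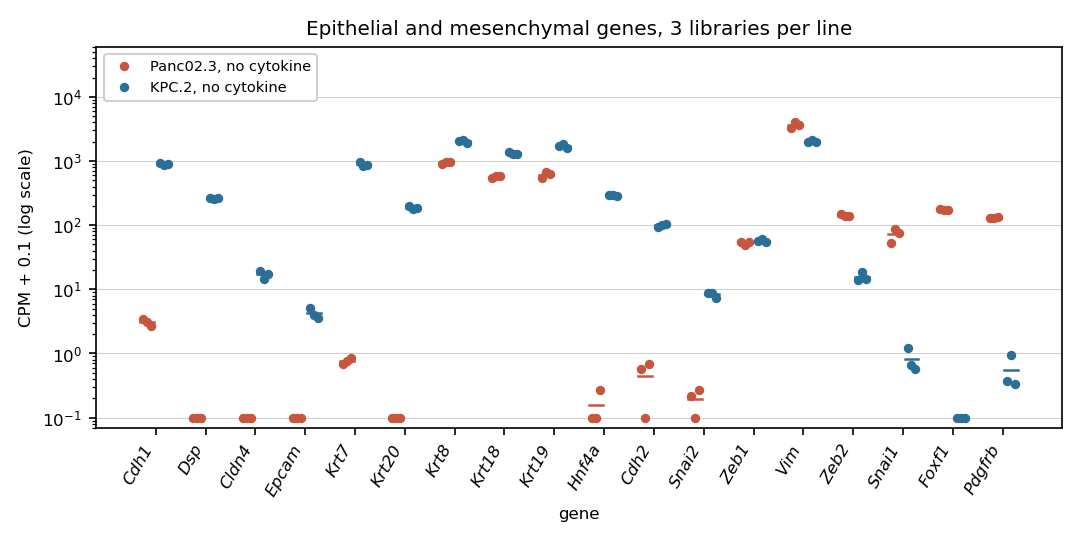
CPM plus an offset of 0.1 (log axis) in each unstimulated library for epithelial and mesenchymal genes; points are libraries and short bars are group means, 3 libraries per line. Cdh1, Dsp, Krt7 and Krt20 sat far higher in KPC.2, Zeb1 overlapped between the lines, and Snai1, Foxf1 and Pdgfrb sat far higher in Panc02.3.

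The transcription factors that maintain the epithelial program differed only in part. Of 13 tested splicing and transcription factor genes, 6 were higher in KPC.2, 1 was higher in Panc02.3 and 6 were not called, with a median of -0.997. Grhl3, a grainyhead factor of surface epithelia, had no count in Panc02.3 and 17.8, 18.6 and 17.1 CPM in KPC.2, at least 159-fold. Elf3 measured 3.31 ± 0.70 and 68.3 ± 5.7 CPM in Panc02.3 and KPC.2 (SD, n = 3). Trp63, which marks basal and squamous epithelium, was the member higher in Panc02.3, with 6.29, 3.80 and 5.56 CPM against 0.417, 0 and 0.235 CPM. Grhl2 and the splicing factor Esrp1 stayed at or below 1.32 CPM in every library of both lines and were not called. The related splicing factor Esrp2 was higher in KPC.2, with 60 counts over the Panc02.3 libraries and 748 over the KPC.2 libraries (log2 difference -4.18). Among genes of epithelial proteases and trafficking, 10 of 14 tested were higher in KPC.2 and 0 in Panc02.3, with a median of -4.50. The mucin Muc1, a glycoprotein of the apical surface, measured 0.594, 1.32 and 0.995 CPM in Panc02.3 and 245, 202 and 243 CPM in KPC.2.

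The E-box hexamer bound by Snail and Zeb repressors, CAGGTG on either strand (CACCTG when read on the other), was looked up in RefSeq promoter windows (GRCm38.p6) that run from 250 bases before to 50 bases after each gene start. It was present in 22.6% of the 27025 genes with a window. Among the epithelial genes higher in KPC.2, 25 of 40 had a window and 20 of those held the hexamer (80%). Among tested epithelial genes that were not called, 10 of 16 had a window and 4 held it (40%). The last 140 bases before the start of 3 genes higher in KPC.2 are printed because a hexamer lies inside them, with the hexamer in capitals. They are Epcam (chr17:87635839-87635978, + strand, hexamer starting 19 bases before the gene start), Grhl3 (chr4:135573633-135573772, - strand, 19 bases before) and Muc1 (chr3:89228916-89229055, + strand, 70 bases before). A match describes these letters and does not show a bound site or a cause.
Epcam: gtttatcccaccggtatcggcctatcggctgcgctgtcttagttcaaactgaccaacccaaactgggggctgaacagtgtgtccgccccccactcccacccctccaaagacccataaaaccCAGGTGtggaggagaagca
Grhl3: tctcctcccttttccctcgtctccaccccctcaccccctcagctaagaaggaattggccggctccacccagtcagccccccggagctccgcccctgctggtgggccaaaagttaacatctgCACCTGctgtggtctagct
Muc1: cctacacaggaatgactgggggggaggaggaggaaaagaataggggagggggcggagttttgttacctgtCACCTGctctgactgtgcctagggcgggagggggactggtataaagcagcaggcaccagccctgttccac

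Genes of the mesenchymal transcription factor list moved in both directions. Of 15 tested, 8 were higher in Panc02.3 and 5 in KPC.2, with a median of 1.26. Snai1, a Snail repressor of E-cadherin, measured 53.5, 87.5 and 75.3 CPM in Panc02.3 and 1.11, 0.567 and 0.469 CPM in KPC.2, a difference of 6.54 ± 0.24 (SE). Zeb2 measured 147, 137 and 140 CPM against 13.8, 18.6 and 14.3 CPM, and Twist1 had a mean of 18.7 ± 1.3 against 2.58 ± 1.1 CPM (SD, n = 3). Foxf1, a forkhead factor of visceral mesenchyme, had 182, 170 and 174 CPM in Panc02.3 and no count in KPC.2, at least 1083-fold. Foxc2 had 20.1 ± 2.8 CPM in Panc02.3 (SD, n = 3) and no count in KPC.2. Other members, among them relatives of these factors, went the opposite way. Snai2 had 3 counts over the Panc02.3 libraries and 8.27 ± 0.87 CPM in KPC.2 (SD, n = 3), a ratio of 74.5 with a 95% counting interval of 25.04 to 365. Foxf2 had 1 count in Panc02.3 against 58.5 ± 6.1 CPM (SD, n = 3), and Prrx1 measured 0.245 ± 0.083 against 1.13 ± 0.52 CPM (SD, n = 3). Zeb1 did not separate the lines, with 55.5, 49.4 and 54.3 CPM in Panc02.3 and 55.6, 60.1 and 55.4 CPM in KPC.2, a difference of -0.10 ± 0.09 (SE; adjusted p = 0.309).

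Mesenchymal structural and surface genes were not higher as a group in the line with the lower junction genes. Of 23 tested, 4 were higher in Panc02.3, 7 were higher in KPC.2 and 12 were not called, with a median of -0.20. Of all genes tested, 14% and 19.3% were called in those directions. N-cadherin (Cdh2), the usual mesenchymal counterpart of E-cadherin, measured 0.475, 0 and 0.581 CPM in Panc02.3 and 94.4, 102 and 106 CPM in KPC.2. All KPC.2 libraries lay above all Panc02.3 libraries for this gene, as they did for Cdh1, and the difference was -7.88 ± 0.20 (SE). The receptor tyrosine kinase Axl (241 ± 8.8 against 805 ± 48 CPM) and the ectonucleotidase Nt5e (0.676 ± 0.44 against 105 ± 1.8 CPM; SD, n = 3) were also higher in KPC.2. Pdgfrb, the platelet-derived growth factor receptor of pericytes and fibroblasts, went the other way, with 132, 130 and 132 CPM in Panc02.3 and 0.278, 0.851 and 0.235 CPM in KPC.2, a difference of 8.04 ± 0.15 (SE). Vimentin (Vim), the mesenchymal intermediate filament, measured 3257, 4018 and 3664 CPM against 2001, 2152 and 1978 CPM. Its difference of 0.83 ± 0.07 (SE) was under 2-fold, although the libraries did not overlap.

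Called collagen genes of the interstitial matrix were mostly higher in Panc02.3. Of 20 fibrillar and fibril-associated collagen genes tested, 11 were higher in Panc02.3, 3 were higher in KPC.2 and 6 were not called, with a median of 1.87. Col3a1 measured 263, 410 and 393 CPM in Panc02.3 and 0, 0.283 and 0.469 CPM in KPC.2, a difference of 10.60 ± 0.26 (SE). Col1a1 measured 288, 394 and 355 CPM against 5.56, 5.25 and 4.93 CPM, a difference of 6.02 ± 0.13 (SE). For both genes the lowest Panc02.3 library was far above the highest KPC.2 library. Col5a1 (548 ± 33 against 98.6 ± 1.7 CPM) and Col6a1 (300 ± 30 against 68.9 ± 9.0 CPM; SD, n = 3) were also higher in Panc02.3. Col1a2, whose product joins that of Col1a1 in type I collagen, was low in both lines, at 0.356, 1.82 and 0.498 CPM in Panc02.3 and at 0.139, 0 and 0 CPM in KPC.2. Its ratio therefore rests on 1 count in KPC.2. The exceptions higher in KPC.2 were Col11a1, Col16a1 and Col27a1.

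Serpinh1, which encodes HSP47, the endoplasmic reticulum chaperone that collagen needs to fold and leave the cell, was almost absent from the line with the higher collagen transcripts. It measured 0.119, 0.165 and 0.166 CPM in Panc02.3 and 310, 309 and 303 CPM in KPC.2, a difference of -10.88 ± 0.13 (SE; adjusted p = 1.34e-53). The mean of each of the other 6 unstimulated lines lay between 381 and 954 CPM. The prolyl hydroxylases P4ha1 and P4ha2 and the lysyl oxidase Lox, which modify and crosslink collagen, were higher in Panc02.3, whereas P4ha3 had 1 count there and 13.96 ± 2.6 CPM in KPC.2 (SD, n = 3). Lox had 2.73, 5.29 and 6.22 CPM there and no count in KPC.2, at least 30.2-fold. Loxl2, another lysyl oxidase, measured 4.04, 5.29 and 6.97 CPM in Panc02.3 and 182, 217 and 193 CPM in KPC.2. Of 21 crosslinking and processing genes tested, 8 were higher in Panc02.3, 5 in KPC.2 and 8 were not called, with a median of 0.53.

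Basement membrane genes divided by chain. Of 24 tested, 6 were higher in Panc02.3, 8 in KPC.2 and 10 were not called, with a median of -0.67. Lamb3, a chain of the epithelial anchoring laminin, was higher in KPC.2 (0.699 ± 0.36 against 87.8 ± 4.7 CPM; SD, n = 3). Col4a5 had 1 count in Panc02.3 and 52.3 ± 1.5 CPM in KPC.2 (SD, n = 3). The main type IV collagen gene Col4a1 measured 894 ± 46 and 647 ± 19 CPM (SD, n = 3) and was not called. Glycoproteins and proteoglycans split evenly, with 10 of 34 higher in Panc02.3 and 12 in KPC.2. Fibronectin (Fn1), a provisional matrix protein, measured 8815, 10930 and 10310 CPM in Panc02.3 and 1536, 1887 and 1600 CPM in KPC.2, a difference of 2.58 ± 0.11 (SE). Sparc (621 ± 46 against 206 ± 5.1 CPM; SD, n = 3) was higher in Panc02.3, and fibulin 2 (Fbln2; 7.02 ± 1.8 against 765 ± 37 CPM; SD, n = 3) was higher in KPC.2. Postn, a stromal matricellular gene, had 1 count over all 6 libraries.

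**Figure D2:**
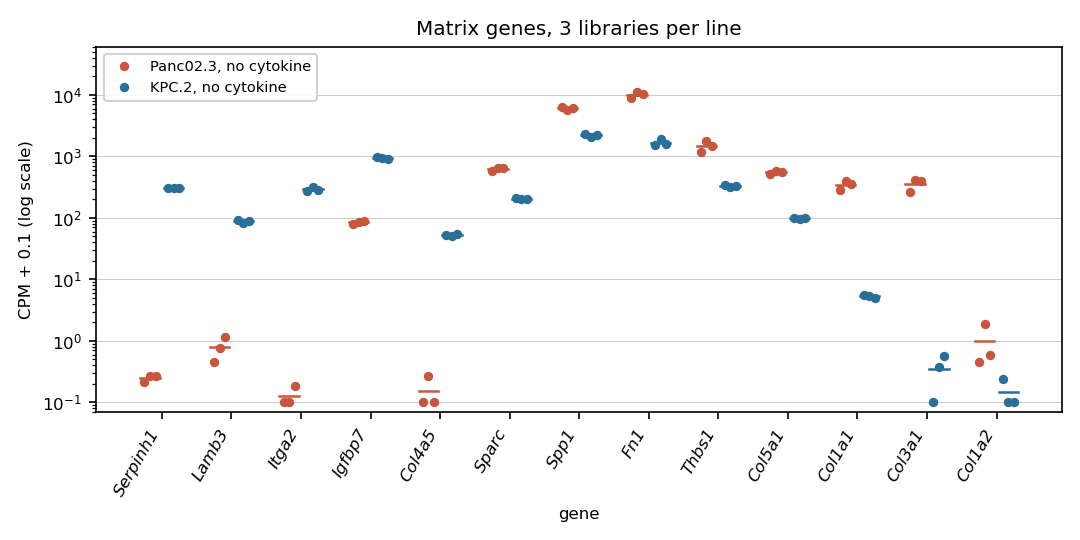
CPM plus an offset of 0.1 (log axis) in each unstimulated library for matrix genes; points are libraries and short bars are group means, 3 libraries per line. Serpinh1, Lamb3 and Itga2 were near 0 in Panc02.3, whereas Col3a1 and Col1a1 sat far higher in Panc02.3.

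Matrix proteases and their inhibitors also went both ways, with 8 of 33 tested higher in Panc02.3 and 13 in KPC.2. Gelatinase A (Mmp2) had 2.56 ± 0.39 CPM in Panc02.3 (SD, n = 3) and no count in KPC.2. The metalloprotease Adamts1 had no count in Panc02.3 and 195, 177 and 207 CPM in KPC.2, at least 1686-fold. Among integrins, the receptors for these matrices, 4 of 20 tested were higher in Panc02.3 and 7 in KPC.2 (14% and 19.3% of all genes tested). The collagen-binding chains Itga1 and Itga2 each had 1 count over the Panc02.3 libraries. In KPC.2, Itga1 measured 195, 240 and 193 CPM and Itga2 measured 272, 318 and 280 CPM. The fibronectin receptor chain Itga5 was higher in Panc02.3 (237 ± 6.3 against 53.1 ± 0.64 CPM; SD, n = 3), and Itgb1, the common partner chain, was not called.

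Ligands and receptors of the transforming growth factor beta family differed in both directions. Bmp7 measured 141, 164 and 157 CPM in Panc02.3 and 0.278, 0.142 and 0.469 CPM in KPC.2, a difference of 9.09 ± 0.24 (SE). Bmp4 was also higher in Panc02.3, at 798 ± 25 against 50.7 ± 0.22 CPM (SD, n = 3). The related ligands Bmp2 (0.110 ± 0.19 against 7.04 ± 0.99 CPM) and Bmp6 (0 against 1.81 ± 0.48 CPM; SD, n = 3) were higher in KPC.2. Tgfb2 had no count in Panc02.3 and 13.2, 12.6 and 14.8 CPM in KPC.2, at least 118-fold, while Tgfb1 was not called. The type I and type II receptors Tgfbr1 and Tgfbr2 were not called, whereas the coreceptor Tgfbr3 was higher in Panc02.3 (58.9 ± 4.8 against 1.83 ± 1.1 CPM; SD, n = 3). Smad4, the shared mediator of the pathway and a frequent loss in pancreatic cancer, measured 20.8, 21.2 and 21.3 CPM in Panc02.3 and 104, 103 and 100 CPM in KPC.2, a difference of -2.28 ± 0.10 (SE). Id1, Id2 and Id3, known targets of BMP signalling, were higher in KPC.2, at 12.4 ± 0.60, 5.79 ± 1.9 and 5.67 ± 1.9 CPM in Panc02.3 and 284 ± 18, 140 ± 4.7 and 152 ± 4.1 CPM in KPC.2 (SD, n = 3). Of the 43 genes tested in this list, 12 were higher in Panc02.3 and 13 in KPC.2, with a median of 0.03.

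The pancreatic label was checked against ductal, progenitor, acinar and endocrine genes. Of 32 ductal and progenitor genes tested, 24 were higher in KPC.2, 1 was higher in Panc02.3 and 7 were not called, with a median of -4.14. Against the mean of the other 6 lines, 28 were higher and 1 lower in KPC.2 (22.6% and 9.48% of all genes tested). In Panc02.3, 13 were higher and 1 lower than that mean (18.1% and 9.59% of all genes tested). Hnf4a, a transcription factor of foregut epithelium, had 2 counts over the Panc02.3 libraries and 290, 300 and 281 CPM in KPC.2, a ratio of 3870 with a 95% counting interval of 1071 to 31960. Claudin 18 (Cldn18), a gastric-type claudin often switched on in pancreatic cancer, had 1 count in Panc02.3 and 477, 480 and 442 CPM in KPC.2. The trefoil factors Tff1 and Tff2 had no count in Panc02.3 against 20.6 ± 3.1 and 27.6 ± 4.7 CPM in KPC.2 (SD, n = 3). Pdx1, the pancreatic progenitor factor, was present in both lines, with 67.7, 87.0 and 79.0 CPM in Panc02.3 and 55.8, 60.4 and 55.6 CPM in KPC.2, and was not called. For Pdx1, Panc02.3 and KPC.2 held the highest 2 means of the 8 unstimulated lines. Gata6, whose level marks the classical subtype of pancreatic cancer, measured 26.5 ± 4.1 and 56.5 ± 1.4 CPM (SD, n = 3), a difference of -1.10 ± 0.14 (SE). Without Panc02.3 replicate 1 that difference was -0.99 and fell short of 2-fold. Sox9, the member higher in Panc02.3, exceeded 2-fold only narrowly (1.01 ± 0.10, SE). It fell short of 2-fold with RLE or upper-quartile scaling, in limma-voom and DESeq2, with a replicate block in the 6 libraries alone, and without Panc02.3 replicate 2 or 3 or KPC.2 replicate 2 or 3. Of 30 acinar and endocrine genes, 24 had 3 or fewer counts in both lines.

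Most markers of leukocytes were near 0 in both lines. Of 24 leukocyte markers, 15 had 3 or fewer counts in both lines, and the leukocyte gene Laptm5 was called higher in Panc02.3 at 2.65 ± 0.92 CPM (SD, n = 3). Summed over the leukocyte list, the level was 82.7 to 91.5 CPM in Panc02.3 and 164 to 183 CPM in KPC.2. Most of that sum was Cd14, a lipopolysaccharide coreceptor, at 75.4 ± 5.5 CPM in Panc02.3 and 166 ± 10.0 CPM in KPC.2 (SD, n = 3). Muscle, bone and fat markers summed to 77.3 to 86.9 CPM in Panc02.3 and 229 to 258 CPM in KPC.2, where the fat cell factor Pparg had 72.5 ± 5.9 CPM and the cartilage proteoglycan Acan had 67.8 ± 14 CPM (SD, n = 3). Of 14 tested in that list, 5 were higher in KPC.2 and 1 in Panc02.3. The latter was Sox5, with 102 counts over the Panc02.3 libraries and no count in KPC.2. The endothelial list summed to 11.03 to 12.2 CPM and 28.5 to 30.1 CPM, with Cdh5, the endothelial cadherin, at 2.48 ± 0.30 CPM in Panc02.3 (SD, n = 3) and at 0 in KPC.2. The other called endothelial genes, Flt1 and Esam, were higher in KPC.2, with log2 differences of -2.93 and -5.20. The part of other cell types in the matrix and immune differences was not tested. Neuronal genes such as Map2 (21.4 ± 1.1 CPM; SD, n = 3) and Tubb3 (6.13 ± 0.52 CPM; SD, n = 3) were found in KPC.2 and had no count in Panc02.3.

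**Figure D3:**
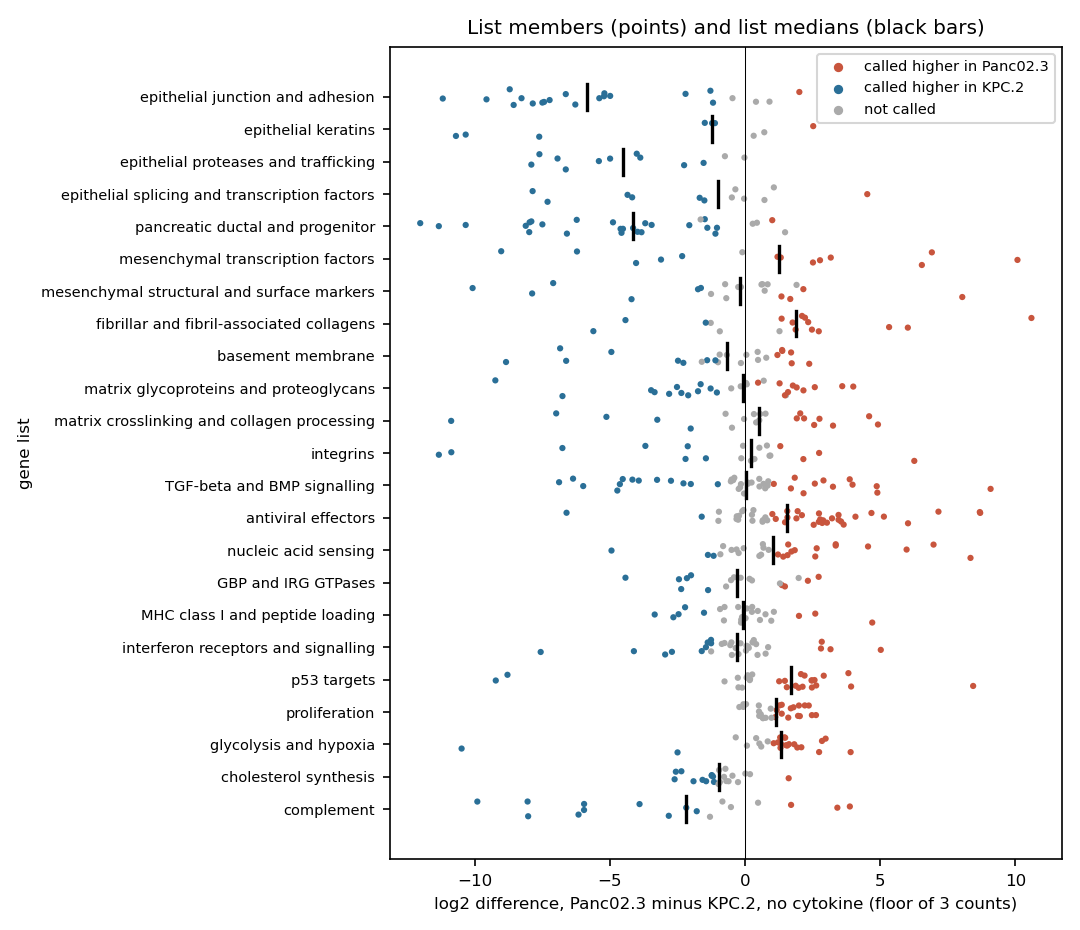
Log2 difference of each tested list member (points; groups near 0 set to 3 counts, members near 0 in both lines left out), coloured by call, with list medians as black bars. The epithelial junction (-5.84) and ductal (-4.14) medians lay far toward KPC.2, whereas the collagen (1.87), antiviral (1.57) and p53 target (1.71) medians lay toward Panc02.3.

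Cell cycle inhibitors and p53 targets differed between the lines while Trp53 was not called. Cdkn2a, which encodes the inhibitors p16 and p19 (ARF), had no count in any Panc02.3 library and 342, 342 and 340 CPM in KPC.2, at least 3020-fold. Its neighbour Cdkn2b had 2 counts in Panc02.3 and 143, 138 and 130 CPM in KPC.2, a ratio of 1833 with a 95% counting interval of 507 to 15140. These genes lie side by side on chromosome 4 (Cdkn2a at chr4:89274471-89294653 and Cdkn2b at chr4:89306299-89311039, GRCm38), whereas Mtap on the same chromosome measured 129 ± 5.0 CPM in Panc02.3 and 194 ± 3.2 CPM in KPC.2 (SD, n = 3) and was not called. Trp53 had 134 ± 15 CPM in Panc02.3 and 185 ± 0.54 CPM in KPC.2 (SD, n = 3). Of 28 p53 target genes, 17 were higher in Panc02.3, 2 in KPC.2 and 9 were not called, with a median of 1.71. The inhibitor p21 (Cdkn1a) measured 208, 273 and 247 CPM in Panc02.3 and 13.8, 18.3 and 15.7 CPM in KPC.2, a difference of 3.92 ± 0.11 (SE). Mdm2, which targets p53 for degradation, measured 228 ± 7.2 and 40.6 ± 1.7 CPM (SD, n = 3). Eda2r had 55.2, 59.4 and 55.6 CPM in Panc02.3 and no count in KPC.2, at least 348-fold. The apoptosis genes Perp (0.0947 ± 0.085 against 68.0 ± 1.8 CPM) and Pmaip1 (0.0553 ± 0.096 against 49.4 ± 4.2 CPM; SD, n = 3) were the targets higher in KPC.2. Against the mean of the other 6 lines, 9 p53 targets were higher and 1 lower in Panc02.3 (18.1% and 9.59% of all genes tested), while 6 were higher and 13 lower in KPC.2 (22.6% and 9.48% of all genes tested).

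Called genes of proliferation and glycolysis were mostly higher in Panc02.3, and called genes of cholesterol synthesis mostly higher in KPC.2. Of 28 proliferation genes, 15 were higher in Panc02.3 and 0 in KPC.2, with a median of 1.14. Against the mean of the other 6 lines, 0 were higher and 6 lower in Panc02.3 (18.1% and 9.59% of all genes tested). In KPC.2, 0 were higher and 24 lower than that mean (22.6% and 9.48% of all genes tested). The proliferation antigen Mki67 measured 510, 602 and 604 CPM in Panc02.3 and 79.5, 143 and 83.8 CPM in KPC.2, and the highest KPC.2 library stayed well below the lowest Panc02.3 library. The replication helicase genes Mcm2 to Mcm7 were not called. Of 25 glycolysis and hypoxia genes, 17 were higher in Panc02.3 and 2 in KPC.2, with a median of 1.33. The prolyl hydroxylase Egln3, which is induced by low oxygen, had 900 ± 170 against 59.4 ± 19 CPM (SD, n = 3), and glucose phosphate isomerase (Gpi1) had 3957 ± 860 against 500.5 ± 36 CPM (SD, n = 3). The lactate exporter Slc16a3 went the other way, with 2 counts over the Panc02.3 libraries and 140, 204 and 133 CPM in KPC.2. Of 23 cholesterol synthesis genes, 10 were higher in KPC.2, 1 in Panc02.3 and 12 were not called, with a median of -0.98.

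Called antiviral effector genes were mostly higher in Panc02.3 without any added interferon. Of 48 tested, 27 were higher in Panc02.3, 2, Parp12 among them, were higher in KPC.2 and 19 were not called, against 14% and 19.3% of all genes tested in those directions. The list median was 1.57. Ifitm3, a membrane protein that blocks virus entry, measured 358, 376 and 360 CPM in Panc02.3 and 0.834, 1.28 and 0.235 CPM in KPC.2, a difference of 8.70 ± 0.17 (SE; adjusted p = 2.63e-45). Its neighbour in the family Ifitm1 had 62.4, 73.9 and 66.3 CPM in Panc02.3 and no count in KPC.2, at least 412-fold. Ifit1, which binds viral RNA lacking a methylated cap, measured 34.5, 36.0 and 28.7 CPM in Panc02.3 and 0.278, 0.283 and 0 CPM in KPC.2, a difference of 7.16 ± 0.35 (SE). The ubiquitin-like modifier Isg15 measured 36.4, 40.3 and 29.3 CPM against 0.417, 1.42 and 1.17 CPM, a difference of 5.14 ± 0.26 (SE). Its deconjugating enzyme Usp18, a brake on type I interferon receptor signalling, measured 17.3, 15.5 and 11.5 CPM against 0.417, 0.425 and 0.469 CPM. The groups did not overlap for any of these genes. Oas1a, an antiviral enzyme that senses double-stranded RNA, had 4.08 ± 1.3 against 0.186 ± 0.21 CPM (SD, n = 3). Ifit, Oas and Gbp genes have near-identical relatives between which reads may have been split, so single members of these families are uncertain.

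Parp12 ran against the list. Parp12, an interferon-induced ADP-ribosyltransferase, had no count in Panc02.3 and 10.6, 11.2 and 11.5 CPM in KPC.2, at least 97.5-fold. Compared with the mean of the other 6 unstimulated lines, 9 of 48 antiviral genes were higher and 6 lower in Panc02.3 (18.1% and 9.59% of all genes tested), with a median of -0.11. In KPC.2, 3 were higher and 25 lower (22.6% and 9.48% of all genes tested), with a median of -2.25. These contrasts share the pancreatic libraries with the comparison of the lines.

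The interferon-stimulated response element core, GAAA then NN (any pair of bases) then GAAA, was read on both strands and was looked up in the same RefSeq windows. It was present in 3.99% of the 27025 genes with a window. Of the 27 antiviral genes higher in Panc02.3, 19 had a window and 11 of those held the core (57.9%). Of the 19 that were not called, 16 had a window and 5 held it (31.2%). The 140 bases before the start of Ifit1 (chr19:34640749-34640888, + strand), Isg15 (chr4:156200819-156200958, - strand) and Oas1a (chr5:120907526-120907665, - strand) are printed with the matches in capitals, because these genes differed between the unstimulated lines and hold the core close to their start. In Ifit1 the matches start 104 and 85 bases before the gene start. In Isg15 there are 3 overlapping matches, starting 78, 72 and 66 bases before the gene start, and in Oas1a 2 overlapping matches starting 20 and 14 bases before it. As for the E-box, a match is a description of letters and not a site or a cause.
Ifit1: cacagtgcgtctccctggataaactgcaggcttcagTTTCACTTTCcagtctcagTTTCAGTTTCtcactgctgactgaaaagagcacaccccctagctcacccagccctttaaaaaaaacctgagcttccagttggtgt
Isg15: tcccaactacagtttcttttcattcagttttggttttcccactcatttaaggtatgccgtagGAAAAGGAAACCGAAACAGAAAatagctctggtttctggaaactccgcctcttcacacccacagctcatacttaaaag
Oas1a: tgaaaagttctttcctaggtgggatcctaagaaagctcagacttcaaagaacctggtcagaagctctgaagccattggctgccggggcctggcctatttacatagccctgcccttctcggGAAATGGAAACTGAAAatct

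Ligands and receptors upstream of these genes did not follow the antiviral list. Ifnb1, which encodes interferon beta itself, had no count in either line. Ifnar1, a chain of the type I interferon receptor, measured 101, 104 and 106 CPM in Panc02.3 and 118, 118 and 114 CPM in KPC.2 and was not called, and neither was the kinase Jak1. Ifngr1, the ligand-binding chain of the IFNg receptor, measured 39.7, 46.1 and 42.9 CPM in Panc02.3 and 332, 332 and 331 CPM in KPC.2, a difference of -2.96 ± 0.07 (SE). Ifnlr1, the receptor chain for interferon lambda, had 2 counts in Panc02.3 and 21.8 ± 2.4 CPM in KPC.2 (SD, n = 3), a ratio of 284 with a 95% counting interval of 78.0 to 2351. Among the transcription factors, Irf7, which amplifies type I interferon, measured 22.2, 26.4 and 15.01 CPM in Panc02.3 and 2.64, 2.13 and 1.88 CPM in KPC.2. Stat2 (0.76 ± 0.12) and Irf9 (0.85 ± 0.10, SE) stayed under 2-fold. Of 32 receptor and signalling genes tested, 4 were higher in Panc02.3, 9 in KPC.2 and 19 were not called. Of all genes tested, 14% were higher in Panc02.3 and 19.3% in KPC.2.

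Sensors of foreign nucleic acid leaned toward Panc02.3, with 14 of 29 tested higher there, 3 higher in KPC.2 and a median of 1.05. STING (Tmem173), the adaptor of cytosolic DNA sensing, had 57.6, 48.6 and 51.2 CPM in Panc02.3 and no count in KPC.2, at least 325-fold. The RNA sensor RIG-I (Ddx58) measured 68.3 ± 6.1 against 18.97 ± 0.10 CPM (SD, n = 3). Its relative MDA5 (Ifih1) went the opposite way, at 0.593 ± 0.32 against 19.02 ± 0.61 CPM (SD, n = 3).

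Most antigen presentation genes were not called. Of 29 class I and peptide loading genes tested, 3 were higher in Panc02.3 (Tap1, Tap2 and the class I transactivator Nlrc5), 5 were higher in KPC.2 and 21 were not called, against 14% and 19.3% of all genes tested in those directions. Nlrc5 measured 11.7 ± 0.61 against 0.405 ± 0.16 CPM, and the peptide transporter chain Tap1 measured 3.04 ± 1.6 against 0.734 ± 0.19 CPM (SD, n = 3). The class I heavy chain H2-K1 went the other way, with 45.7, 70.6 and 57.3 CPM in Panc02.3 and 264.9, 268 and 268 CPM in KPC.2, a difference of -2.22 ± 0.09 (SE). B2m, the light chain shared by class I molecules, was not called. H2 genes are close relatives, so counts of single members are uncertain. Of 21 interferon-inducible GTPases, 4 were higher in Panc02.3 and 6 in KPC.2, against the same 14% and 19.3%. Gbp3 measured 4.90 ± 1.0 against 0.640 ± 0.35 CPM (SD, n = 3), while Gbp2 was not called at 5.62 ± 0.72 against 7.73 ± 0.84 CPM (SD, n = 3).

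Secreted immune factors gave each line its own set. Of 41 chemokines and cytokines tested, 13 were higher in Panc02.3 and 17 in KPC.2. The neutrophil attractant Cxcl1 had no count in Panc02.3 and 48.5, 44.8 and 46.0 CPM in KPC.2, at least 411-fold, and its relative Cxcl5 measured 14.2 ± 1.9 against 339 ± 34 CPM (SD, n = 3). Another relative, Cxcl15, was higher in Panc02.3 (122 ± 35 against 4.63 ± 1.1 CPM; SD, n = 3). The lymphocyte attractants Ccl5 (13.8 ± 0.99 against 0.0473 ± 0.082 CPM) and Cxcl10 (7.55 ± 3.6 against 0.513 ± 0.49 CPM; SD, n = 3) were higher in Panc02.3, and Cxcl16 (0.873 ± 0.32 against 160.5 ± 1.1 CPM; SD, n = 3) was higher in KPC.2. Of 18 complement genes tested, 10 were higher in KPC.2 and 3 in Panc02.3, with a median of -2.18. Complement C3 measured 1.12 ± 0.39 against 288 ± 59 CPM, and factor B (Cfb) 0.450 ± 0.18 against 410.0 ± 32 CPM (SD, n = 3). The complement shield Cd55 had no count in Panc02.3 and 29.9 ± 5.1 CPM in KPC.2 (SD, n = 3). The checkpoint ligand PD-L1 (Cd274) measured 4.72 ± 0.54 against 10.9 ± 0.59 CPM (SD, n = 3), a difference of -1.24 ± 0.17 (SE).

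The line comparison was repeated in the libraries stimulated with cytokine. Their values did not enter the unstimulated group means. They did share the gene filter and the estimate of spread with the unstimulated comparison, so the repeat is not fully independent. With IFNb, 1760 of the 2260 genes higher in unstimulated Panc02.3 were called in that direction again (77.9%, and 85.6% of the 2056 called there with IFNb), and 18 were called in the opposite direction. For genes higher in KPC.2 the numbers were 2562 of 3112 (82.3%, and 88.7% of 2890) and 0. With IFNg, 1231 of 2260 (54.5%, and 50.9% of 2418) and 2339 of 3112 (75.2%, and 60.2% of 3886) were called in the same direction, and 70 and 37 in the opposite one. Of 22 junction genes, 18 were higher in KPC.2 with IFNb and 20 with IFNg (17.9% and 24.1% of all genes tested). Cdh1 differed by -9.02 and -8.20 (log2). The Col1a1 difference shrank with IFNg, from 6.02 to 1.84, a change of -4.19 on the log2 scale. Its Panc02.3 mean was 9.71 ± 1.9 CPM (SD, n = 3) with IFNg.

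Antiviral genes were mostly not higher in Panc02.3 once the lines were stimulated with IFNb. With IFNb, 5 of 48 antiviral genes were higher in Panc02.3 and 22 in KPC.2 (12.7% and 17.9% of all genes tested), with a median of -0.79. Without KPC.2 replicate 3 with IFNb, the shallowest library at 668355 counts, the numbers were 4 and 22 with a median of -0.83. The change of the line difference itself was tested, and it was called for 116 genes (0.718%) with IFNb and 3351 genes (20.8%) with IFNg. Among antiviral genes the difference fell for 36 of 48 with IFNb (0.65% of all genes tested). Ifit1 measured 70.8 ± 4.8 CPM in Panc02.3 and 276 ± 48 CPM in KPC.2 with IFNb (SD, n = 3), and was called higher in KPC.2 there. Isg15 reached 245 ± 23 and 216 ± 20 CPM (SD, n = 3), a difference of 0.14 that was not called. With IFNg, 22 antiviral genes were higher in Panc02.3 and 8 in KPC.2 (15% and 24.1% of all genes), while 20 of 29 class I genes and 14 of 21 GTPases were higher in KPC.2 and 0 in Panc02.3. H2-K1 reached 358 ± 46 CPM in Panc02.3 and 3909 ± 94 CPM in KPC.2 with IFNg (SD, n = 3).

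**Figure D4:**
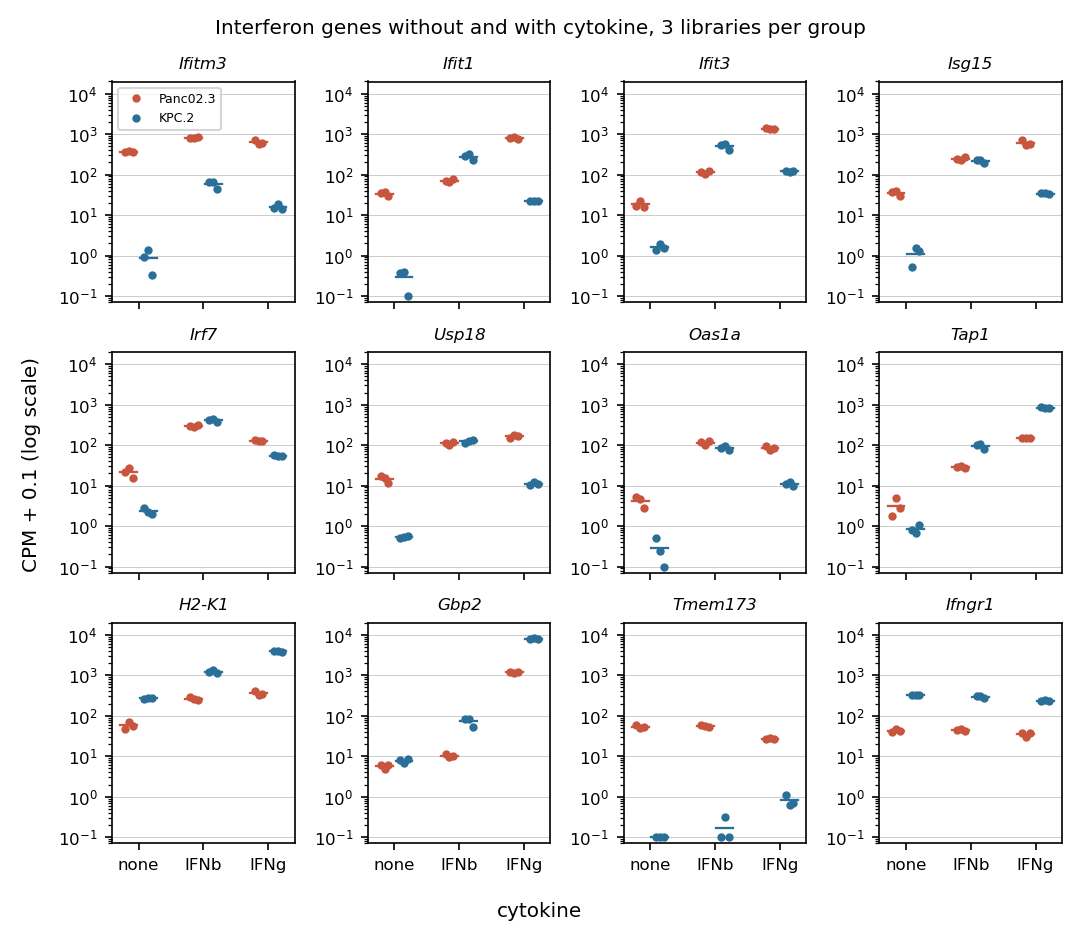
CPM plus an offset of 0.1 (log axis) for interferon genes without cytokine and with IFNb or IFNg; points are libraries and short bars are group means, 3 libraries per group. Ifit1, Isg15 and Usp18 were higher in Panc02.3 without cytokine, and with IFNb Isg15 reached 245 and 216 CPM in Panc02.3 and KPC.2.

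The largest differences of either sign were not confined to the lists above. By the rule that ranks genes detected in both lines, the extremes toward KPC.2 were led by glutamine synthetase (Glul), Serpinh1, Tm4sf4 and Krt7, and those toward Panc02.3 by Col3a1, Bmp7, Ifitm3 and Macc1. Glul measured 0.238, 0.165 and 0.249 CPM in Panc02.3 and 533, 477 and 515 CPM in KPC.2, a difference of -11.05 ± 0.16 (SE). Macc1, an inducer of the Met receptor gene, measured 279, 323 and 321 CPM against 1.25, 0.567 and 0.704 CPM. Among genes near 0 in KPC.2, the highest in Panc02.3 were Trp53i11 (1209, 1609 and 1568 CPM) and the imprinted growth factor Igf2 (982, 1044 and 1023 CPM), both without a count in KPC.2. Igf2 was at least 6262-fold higher.

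Calls were not spread evenly over the genome. On chromosome 17, 321 of 785 tested genes (40.9%) were higher in KPC.2, 23 (2.93%) were higher in Panc02.3, and the median difference was -0.93. Against the mean of the other 6 lines the chromosome 17 median was -0.51 in Panc02.3 and 0.45 in KPC.2. On chromosome 12, 197 of 570 genes (34.6%) were higher in Panc02.3 and 69 (12.1%) in KPC.2, with a median of 0.67. The H2 genes lie on chromosome 17, and the part of that shift in their differences was not tested. Genes with at least 10 CPM in either line were taken in order of position, and genes below that in both lines were skipped. Runs of at least 3 such genes near 0 in Panc02.3 were Hoxb9, Hoxb8 and Hoxb7 (chr11:96271457-96290162) and Tff2, Tff1 and Slc37a1 (chr17:31141049-31350739; GRCm38). Members of a run need not be adjacent genes. Hox genes, which record body position, also differed. Hoxa2 to Hoxa7 were higher in Panc02.3, with Hoxa5 at 40.6 ± 5.1 against 1.87 ± 0.42 CPM (SD, n = 3). Hoxa9 and Hoxa10 were not called, and Hoxa13 (0.513 ± 0.30 against 11.4 ± 1.3 CPM; SD, n = 3) and Hoxb2 to Hoxb9 were higher in KPC.2, with Hoxb8 at 0 against 48.4 ± 2.4 CPM (SD, n = 3).

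**Figure D5:**
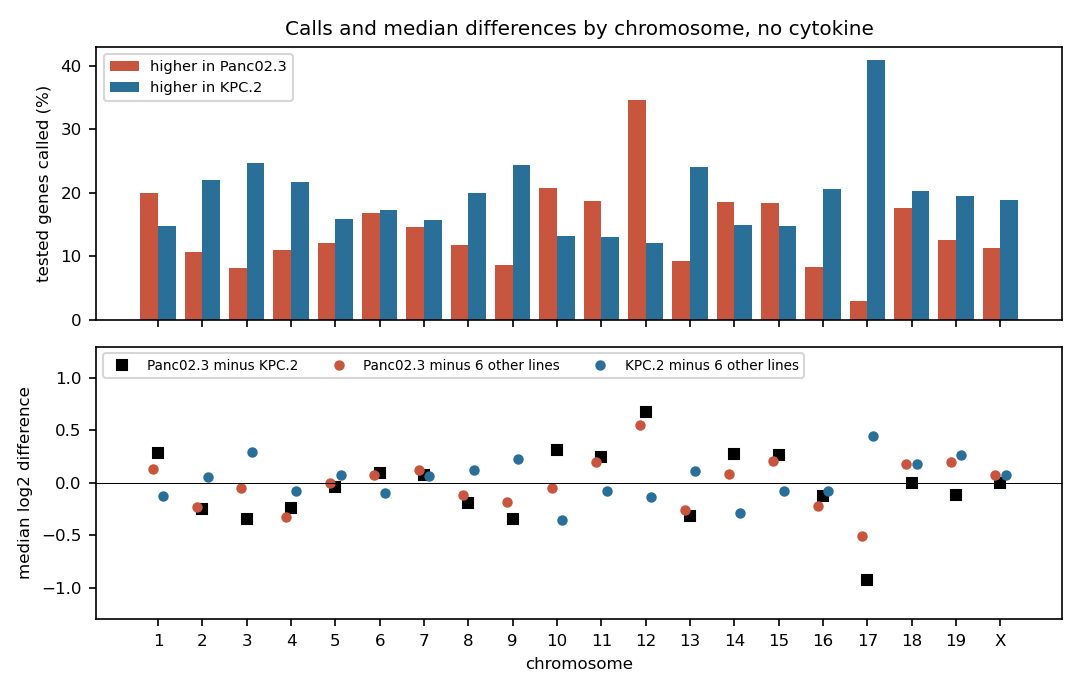
Upper panel: percent of tested genes on each chromosome called higher in Panc02.3 or in KPC.2. Lower panel: median log2 difference between the lines (squares) and of each line minus the mean of the other 6 lines (circles). Chromosome 17 stands lowest, with a median of -0.93, and chromosome 12 highest, with 0.67.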

How the data were processed

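RNA was measured by sequencing directional libraries of mouse cancer cell lines. The authors deposited estimated counts per gene symbol in 1 table for all 70 libraries. The submitters' processing notes name Trimmomatic 0.36, kallisto and mm10/GRCm38, and the kallisto version is not given in the sources used here. Estimated counts were rounded to whole numbers, and filterByExpr in edgeR kept 16147 of 35197 genes. R 4.3.3 with edgeR 4.0.16 fitted 1 quasi-likelihood model of 24 groups of line and treatment over all libraries after TMM scaling, with Benjamini-Hochberg adjustment over all genes tested. limma 3.58.1 (voom), DESeq2 1.42.0, other scalings, filters, sample sets, a replicate block and leaving out each library were alternatives. The fit was tested on simulated data. With 3 or fewer counts over a group, folds use a floor of 3 counts or a 95% counting interval, both covering counting error only. Genes with few counts are the least precise.

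The comparison, the gene lists and the genes were chosen with earlier results of these data known. Genes were named by rule: the largest differences in each direction among genes detected in both lines with at least 10 CPM in the higher one, the most abundant genes near 0 in a line, the called members of each list with the largest differences and its most abundant uncalled members, and a set of standard genes. Other genes named (among them Cldn7, Pkp3, Col5a1, Col6a1, P4ha1, Itga5, Bmp2, Bmp4, Tgfbr3, Pparg, the Id genes, Mdm2, Mtap, Ddx58, Ifih1, Tap2, Ccl5, Cxcl5, Cxcl10, Cxcl15, Cxcl16, C3 and Hox genes) were chosen after their values were seen. Some genes of these lists enter the counts but are not reported here by name. Positions came from GENCODE M21, which placed 34786 symbols once, and promoters from RefSeq.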

Additional observations from a re-analysis of the deposited data

Results flagged for a closer look

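The difference between the lines was itself compared between unstimulated and stimulated libraries, as an interaction in the same edgeR quasi-likelihood fit. It changed for 116 genes with IFNb and for 3351 genes with IFNg. A reversed call was looked for by name only in Isg15, Ifit1, Ifit3, Irf7, Stat2, Irf9, Usp18, Oas1a, Gbp2, Gbp3, H2-K1, B2m, Tap1 and Cd274. Over all genes tested, 18 passed from called higher in Panc02.3 to called higher in KPC.2 with IFNb. Of the genes looked at by name, 4 did so. The log2 change was -9.18 for Ifit1, -5.72 for Ifit3, -4.46 for Gbp3 and -3.77 for Tap1. Without the shallowest KPC.2 library with IFNb (replicate 3), a choice made after seeing the data, these changes were -9.25, -5.81, -4.51 and -3.81.

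Ifit3 measured 18.4 ± 3.5 CPM in Panc02.3 and 1.501 ± 0.31 CPM in KPC.2 without cytokine, and 115.5 ± 10.3 and 504 ± 79 CPM with IFNb (SD, n = 3). With IFNg, 70 of all genes tested passed from called higher in Panc02.3 to called higher in KPC.2. Of the genes looked at by name, Gbp3 and Tap1 did so. The log2 change was -3.86 for Gbp3 and -4.50 for Tap1. Tap1, the peptide transporter chain, reached 147 ± 0.80 CPM in Panc02.3 and 835 ± 24 CPM in KPC.2 with IFNg (SD, n = 3). Ifit1, Ifit3 and Isg15 did not switch with IFNg and were called higher in Panc02.3 with it.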

How the results depend on the processing

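No called gene was called in the opposite direction under any of the 14 alternatives, which kept between 4336 and 5352 of the 5372 calls. Of 291 named genes, 270 had the same call in every alternative. At 4-fold or more, 1077 genes were higher in Panc02.3 and 1998 in KPC.2, and with no fold threshold 5127 and 5676. With no filter on low counts, 234 genes changed their line difference with IFNb. Leaving out each library in turn gave 2171 to 2244 and 2986 to 3071 genes without cytokine. Same-numbered replicates did not vary together (r = -0.04, -0.02 and 0.00 without cytokine). The labels do not say whether equal numbers were handled together, and these values cannot show that they were not. With a replicate block 2263 and 3100 genes were called, and 1907 and 2496 with the block in the 6 libraries alone.

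The junction median was -7.01 with no floor. The mesenchymal factor median was 1.91 in the 6 libraries alone and 1.89 with the block there. The GTPase median became 0.0176 and 0.0276 in those fits, and the class I median 0.0426 and 0.0543. The glycoprotein median was -0.13 with RLE, -0.12 with limma-voom, -0.13 with DESeq2, -0.34 in the 6 libraries alone, -0.33 with the block there and 0.0182 with no floor. The Hox median was 0 with no floor. Without a library the antiviral median ranged from 1.48 to 1.86, the glycoprotein median from -0.24 to -0.0306, the structural marker median from -0.40 to 0.0494, and the matrix protease median from -0.39 to 0.0983. The causes were not tested. Depth limits genes near 0, where 3 counts correspond to 0.113 CPM in Panc02.3 and 0.162 CPM in KPC.2.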

Other observations

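Some genes were near 0 in a single line of the series. By a rule set after the data were seen (a mean under 1 CPM in a line and at least 10 CPM in each of the other 7 unstimulated lines), 18 genes were found for Panc02.3 and 3 for KPC.2. Of the 18, 8 had no count at all in unstimulated Panc02.3, among them Parp12, Adamts1, Evc and Evc2. The 18 also included Serpinh1, Glul, the Golgi glycosyltransferase gene B4galt5 and the monoamine oxidase gene Maoa, each with a few counts. The ciliary genes Evc and Evc2 lie next to each other (chr5:37289098-37425055, GRCm38). Evc2 measured 35.3 CPM in KPC.2 and at least 29.5 CPM in each other line.

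The 18 genes stayed low with cytokine, with the highest Panc02.3 mean at 0.711 CPM with IFNb and 2.80 CPM with IFNg. The 3 genes of KPC.2 were Ifitm3, the collagen receptor Ddr2 and Kctd15. Ifitm3 did not stay low, and measured 58.4 ± 12.9 CPM in KPC.2 with IFNb and 16.06 ± 2.5 CPM with IFNg (SD, n = 3).

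Of the 5372 genes called between the lines, 1025 had 3 or fewer counts in Panc02.3 and 395 had 3 or fewer in KPC.2. Predicted loci and clone names made up 494 of the calls.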
